A study of Mus musculus with 8 samples.

Results

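The 8 genes described here are Ly6g6e, Slc9a9, Tbc1d5, Dynlt1b, Ankrd52, Morn4, Tyw3 and Pxdn, and all were measured at lower levels in tuft cells of scopolamine-treated mice than in those of sham mice. They are 8 of the 35199 genes listed in the deposited table and were selected on this very pattern, a lower CPM (counts divided by library size, scaled between libraries by the TMM method) in every scopolamine library than in every sham library, or nearly so. Having been chosen by their CPM in these libraries, they have the difference between the groups as the criterion of choice, and it is given below as a description, with no test. All 8 passed the expression filter, as did 12849 genes in total. Tyw3 and Pxdn passed it through their sham libraries, since their counts under scopolamine were low.

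Scopolamine, a nonselective antagonist of muscarinic acetylcholine receptors, was delivered to 4 mice through an osmotic pump for 7 days, at a daily dose of 0.5 mg per kg, and 4 sham mice received sodium chloride by the same route for the same time. All mice, sham included, were BAC transgenic Dclk1-DTR-ZSgreen animals, in which a diphtheria toxin receptor and the green reporter ZSgreen are driven by Dclk1 sequences on an artificial chromosome, and pumps were implanted at 8 to 10 weeks of age. From the jejunum, live EPC-high ZSgreen-positive cells were sorted, 3000 cells for scopolamine replicate 1 and sham replicate 1 and 4000 for the other mice, and 1 amplified bulk RNA library was made from each mouse. The reporter follows the transgene and not the endogenous gene, and each library is an average over its sorted cells, so that fewer cells carrying a transcript and less transcript per cell cannot be told apart.

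Tuft cells, a scarce chemosensory type of the intestinal lining, release acetylcholine and interleukin 25. The 8 genes do not form 1 pathway. Ly6g6e encodes a small surface protein of the LY6 and uPAR domain family, which includes known modulators of nicotinic acetylcholine receptors. Slc9a9, Tbc1d5 and Dynlt1b encode proteins of the endosomal system and of its transport: a sodium-proton exchanger (NHE9) that counters acidification of the endosome by the V-ATPase, a GTPase-activating protein for RAB7 that binds the retromer coat, and a Tctex-type light chain of cytoplasmic dynein, the motor that carries cargo towards microtubule minus ends. Ankrd52 is an ankyrin-repeat regulatory subunit of protein phosphatase 6, and Morn4 is a MORN-repeat protein that binds class III myosin. Tyw3 is a methyltransferase in the synthesis of wybutosine, a modified guanosine beside the anticodon of the phenylalanine tRNA. Pxdn, or peroxidasin, is a secreted peroxidase that forms the sulfilimine crosslinks of collagen IV in basement membranes.

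The total estimated count was between 14343362 and 20857433 in the scopolamine libraries and between 25769940 and 41428916 in the sham libraries, so that depth cannot be told apart from treatment, and 3 counts, taken as the floor of detection, equal 0.0730 to 0.212 CPM. Sham replicates 1 and 3 were amplified from 200 pg of RNA with 15 cycles and all other libraries from 1000 pg with 10 cycles. The tuft cell markers Dclk1, Trpm5 and Pou2f3 had log2 fold changes (scopolamine minus sham) of -0.16, 0.011 and -0.35, and all 30 tuft markers examined passed the filter, 26 with a log2 fold change below 0 and 2 lower at an unadjusted p under 0.05 (edgeR), with a median of -0.16 and a summed level of 39788 to 66091 CPM under scopolamine and 49843 to 58271 CPM in sham. Over all genes tested, 50.9% had a log2 fold change below 0, and 2.66% were lower and 3.33% higher at an unadjusted p under 0.05. Of 21 enterocyte markers tested, 21 had a log2 fold change above 0 and 8 were higher at that p. The summed level of all 22 listed ranged from 3529 to 7732 CPM and from 2690 to 7018 CPM. Of 16 goblet and Paneth cell markers, 15 were above 0 and 4 higher at that p, and the sum ranged from 1397 to 7219 CPM and from 594 to 2280 CPM. Of 16 enteroendocrine markers tested, 13 were above 0 and 2 higher at that p (474 to 1130 CPM and 181 to 1531 CPM over all 22 listed). Of 10 intraepithelial lymphocyte markers tested, 9 were above 0 and 0 higher at that p (32.9 to 142 CPM and 3.91 to 168 CPM over all 12 listed). Of 11 dissociation stress genes tested, 11 were above 0 and 3 higher at that p (1472 to 2725 CPM and 1087 to 2196 CPM over all 12 listed). The stem cell markers were below 0 in 7 of 7 cases, with sums of 177 to 291 CPM and 225 to 302 CPM, and only 2 of 11 stromal and endothelial markers passed the filter. The part that these other cells or the stress genes have in the levels of the 8 genes was not tested.

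Dynlt1b shares most of its sequence with other Dynlt1 copies, which bears on how its reads could be assigned. The start of the coding sequence is shown for the pair of copies whose coding transcripts have equal length (771 bases each, GENCODE M21 on GRCm38). Dynlt1b lies at chr17:6430112-6436296 on the plus strand and Dynlt1f at chr17:6646602-6655900 on the minus strand. The 27 bases shown are the first of the coding sequence, in exon 1, at chr17:6430212-6430238 and chr17:6655774-6655800, and the capital marks the base at which the copies differ there, A121C counted from 1 at the transcript's 5′ end with the base of Dynlt1b first.
Dynlt1b: atggaagacttccaggcctcAgaggag
Dynlt1f: atggaagacttccaggcctcCgaggag
Over the whole of these coding transcripts, 7 bases differed (99.09% identity). Dynlt1f has 2 annotated transcripts, and its other one was not compared.

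The sequence upstream of the transcription start was examined because it was not used in choosing the genes. RefSeq promoters (GRCm38.p6, from 250 bases before to 50 bases after the start) were at hand for 6 of the 8 genes, and not for Ly6g6e and Dynlt1b. The 150 bases before the start are shown for Slc9a9 and Tbc1d5, the pair that varied most alike between mice when all libraries were used, and for Ankrd52 and Morn4, which hold the motif matches that differ most in kind, with matches to CCAAT or GGGCGG on either strand in capitals.
Slc9a9 (chr9:94669742-94669891, plus strand): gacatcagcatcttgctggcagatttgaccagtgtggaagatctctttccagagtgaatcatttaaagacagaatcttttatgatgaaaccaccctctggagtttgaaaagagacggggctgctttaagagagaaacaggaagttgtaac
Tbc1d5 (chr17:51179353-51179502, minus strand): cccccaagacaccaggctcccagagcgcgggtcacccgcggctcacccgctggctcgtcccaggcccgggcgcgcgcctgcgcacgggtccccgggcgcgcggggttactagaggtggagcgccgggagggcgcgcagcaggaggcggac
Ankrd52 (chr10:128376974-128377123, plus strand): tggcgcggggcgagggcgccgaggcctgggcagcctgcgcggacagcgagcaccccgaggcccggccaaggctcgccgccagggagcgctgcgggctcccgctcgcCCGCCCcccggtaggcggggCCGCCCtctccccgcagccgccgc
Morn4 (chr19:42086371-42086520, minus strand): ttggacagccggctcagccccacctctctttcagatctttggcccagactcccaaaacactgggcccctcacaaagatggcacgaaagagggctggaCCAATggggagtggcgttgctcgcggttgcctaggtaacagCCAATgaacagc
These stretches differed widely in composition. The Slc9a9 stretch had a GC content of 42% and 1 CpG, that of Morn4 58% and 5 CpG, that of Tbc1d5 78.7% and 21 CpG, and that of Ankrd52 84% and 23 CpG. Over the full windows, with the first listed promoter of each gene, CCAAT was found in 4 of the 6 genes and in 37.4% of the 32544 promoters of the table, GGGCGG in 2 of 6 and in 35.9% (3 of 6 with the second promoter of Tbc1d5 counted), and CACGTG in 1 of 6 and in 7.17%. TATAAA (13.6% of all promoters), TGACGTCA (1.80%) and ATGCAAAT (1.75%) were found in none of the 6. No sequence searched was present in all 6 genes.

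Ly6g6e (chr17:35076902-35078804, plus strand) was measured at 6.12, 5.30, 5.86 and 8.48 CPM in scopolamine replicates 1 to 4 and at 17.2, 11.1, 19.8 and 17.7 CPM in sham replicates 1 to 4. Scopolamine replicate 4 was the highest of its group and sham replicate 2 the lowest of its own, and the groups did not overlap. The means were 6.44 ± 1.40 CPM (SD, n = 4) and 16.4 ± 3.74 CPM (SD, n = 4), a log2 fold change of -1.35 with a standard error of 0.39. Ly6g6e overlaps Ly6g6d, a family member on the opposite strand, and the 2 genes share 200 of the 1352 31-base words (14.8%) in the transcripts of Ly6g6e, 31 bases being the word length by which kallisto is built to assign reads. Ly6g6d was higher in level, at 151 ± 34.6 CPM (SD, n = 4) and 233 ± 57.3 CPM (SD, n = 4), its log2 fold change being -0.63 with a standard error of 0.22 (edgeR, adjusted p = 0.812 by Benjamini-Hochberg). Whether reads were counted by strand is not given, and the exchange of reads between this pair was not tested.

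Slc9a9 (chr9:94669909-95230445, plus strand), a gene spanning 560537 bases, was measured at 7.52, 5.72, 10.2 and 6.49 CPM under scopolamine and at 26.0, 15.04, 30.2 and 13.4 CPM in sham. The sham libraries fell into a higher pair, replicates 1 and 3 from 200 pg of RNA, and a lower pair, replicates 2 and 4 from 1000 pg, and both pairs were above every scopolamine library. The means were 7.48 ± 1.94 CPM (SD, n = 4) and 21.2 ± 8.23 CPM (SD, n = 4), a log2 fold change of -1.50 with a standard error of 0.41. Without the 200 pg libraries the log2 fold change was -0.95. All 31-base words of Slc9a9 were unique to it.

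Tbc1d5 (chr17:50733124-51179352, minus strand), which spans 446229 bases, was measured at 7.47, 4.50, 7.28 and 4.45 CPM under scopolamine and at 21.7, 16.5, 30.9 and 11.8 CPM in sham. As for Slc9a9, sham replicates 1 and 3 were the highest, and the groups did not overlap. The means were 5.93 ± 1.68 CPM (SD, n = 4) and 20.2 ± 8.18 CPM (SD, n = 4), a log2 fold change of -1.77 with a standard error of 0.43, and -1.28 without the 200 pg libraries. Of its 31-base words, 98.3% were unique.

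Dynlt1b, the most abundant of the 8 genes, was measured at 213, 173, 239.8 and 362 CPM under scopolamine and at 351, 557, 604 and 778 CPM in sham. It was the only one of the 8 whose groups overlapped, since scopolamine replicate 4 lay above sham replicate 1, the lowest sham library. The means were 247 ± 81.4 CPM (SD, n = 4) and 573 ± 176 CPM (SD, n = 4), a log2 fold change of -1.21 with a standard error of 0.27. Unlike Slc9a9 and Tbc1d5, its mean was lower in the 200 pg sham libraries (477 CPM) than in the 1000 pg sham libraries (668 CPM), and without the former its log2 fold change was -1.47 and its groups no longer overlapped.

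Only 97 of the 741 31-base words of Dynlt1b (13.1%) were unique to it, and 82.7% were shared with Dynlt1c and 80.7% with Dynlt1a, so the division of counts among the copies is uncertain. Dynlt1f was at 147.5 ± 27.2 CPM (SD, n = 4) under scopolamine against 259 ± 64.2 CPM (SD, n = 4) in sham (log2 fold change -0.81, standard error 0.20). Dynlt1c (chr17:6601671-6609774, plus strand) was at 35.9 ± 8.11 CPM (SD, n = 4) and 55.4 ± 9.88 CPM (SD, n = 4), a log2 fold change of -0.62 with a standard error of 0.23. Both showed no overlap between the groups, as did 1.95% of all genes tested in this direction. Only 7.31% and 7.60% of their words were unique, so they are not independent measures beside Dynlt1b. Dynlt1a (chr17:6306340-6317500, minus strand), at 28.2 ± 11.4 CPM (SD, n = 4) and 23.6 ± 6.73 CPM (SD, n = 4), had a log2 fold change of 0.26 (standard error 0.38), and its groups overlapped. The sum of the 4 copies does not depend on how reads were divided among them, and it was 410, 360, 467 and 599 CPM under scopolamine and 641, 842, 957 and 1202 CPM in sham. For this sum every scopolamine library was below every sham library, a log2 fold change of -0.99 with a standard error of 0.22. Dynlt1b held 48.2 to 60.5% of the sum under scopolamine and 54.8 to 66.2% in sham.

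**Figure D1:**
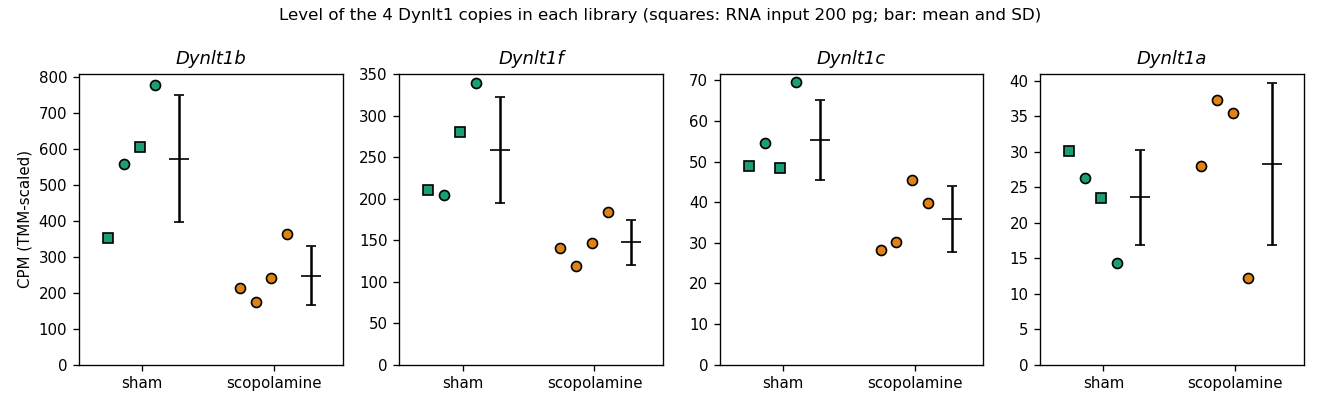
TMM-scaled CPM of Dynlt1b, Dynlt1f, Dynlt1c and Dynlt1a in each sham (green) and scopolamine (orange) library, with the mean and SD beside each group and squares for RNA input of 200 pg. Dynlt1f and Dynlt1c show no overlap between the groups, Dynlt1b overlaps at scopolamine replicate 4 (362 CPM) and sham replicate 1 (351 CPM), and Dynlt1a is not lower under scopolamine.

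Ankrd52 (chr10:128377115-128408704, plus strand) was measured at 3.11, 2.77, 3.67 and 5.68 CPM under scopolamine and at 6.60, 17.7, 29.9 and 12.3 CPM in sham. Scopolamine replicate 4 came close to sham replicate 1, with a ratio of 1.16 between the latter and the former, the narrowest gap among the 7 genes without overlap. The means were 3.81 ± 1.30 CPM (SD, n = 4) and 16.6 ± 9.97 CPM (SD, n = 4), a log2 fold change of -2.13 with a standard error of 0.55. Mouse ID series, the letter in each mouse's ID, largely follows the groups, and scopolamine replicate 4 and sham replicate 1 are the mice that cross it. With the series as a covariate the log2 fold change was -1.43. The annotation lists 7 genes that overlap Ankrd52, of which the antisense gene Gm17201 shares 2.42% of its 31-base words and Nabp2, on the opposite strand, 1.48%. Nabp2 was at 62.0 ± 2.27 CPM (SD, n = 4) and 71.6 ± 27.3 CPM (SD, n = 4).

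Morn4 (chr19:42074939-42086357, minus strand) was measured at 2.81, 1.73, 3.96 and 0.805 CPM under scopolamine and at 7.89, 11.7, 39.9 and 9.47 CPM in sham. Sham replicate 3 stood far above the other sham libraries, and the groups did not overlap with or without it. The means were 2.33 ± 1.36 CPM (SD, n = 4) and 17.2 ± 15.2 CPM (SD, n = 4), a log2 fold change of -2.89 with a standard error of 0.72, and -2.06 without sham replicate 3. Its 31-base words were all unique, and no other gene overlaps it in the annotation.

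Tyw3 (chr3:154576431-154597104, minus strand) was close to the floor under scopolamine, with counts of 1, 18, 1 and 8, or 0.0502, 0.844, 0.0706 and 0.379 CPM, against counts of 95, 51, 161 and 225, or 3.60, 1.24, 3.99 and 6.72 CPM, in sham. Scopolamine replicate 2 was the highest of its group and sham replicate 2 the lowest of its own, and these did not overlap. The means were 0.336 ± 0.371 CPM (SD, n = 4) and 3.89 ± 2.25 CPM (SD, n = 4), a log2 fold change of -3.50 with a standard error of 1.06. With the 2 libraries under 3 counts set to 3 counts, the sham mean was 9.82 times the scopolamine mean. Tyw3 shares 5.34% of its 31-base words with Cryz, which lies on the opposite strand and did not pass the filter.

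Pxdn (chr12:29937608-30017658, plus strand) had counts of 0, 4, 0 and 0 under scopolamine and of 58, 52, 198 and 73 in sham. In sham this amounted to 2.199, 1.27, 4.91 and 2.18 CPM, and in scopolamine replicate 2 to 0.188 CPM. It had the widest gap of the 8 genes, the lowest sham library lying 6.75 times above the highest scopolamine library. The means were 0.0469 ± 0.0938 CPM (SD, n = 4) and 2.64 ± 1.58 CPM (SD, n = 4). The fitted log2 fold change of -5.61 (standard error 1.35) depends on the prior count of the fit, which is not the 2 used for log2 CPM. With the libraries at 0 set to the floor of 3 counts, the sham mean was 15.3 times the scopolamine mean. At this depth a count of 0 does not show that the transcript was absent.

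**Figure D2:**
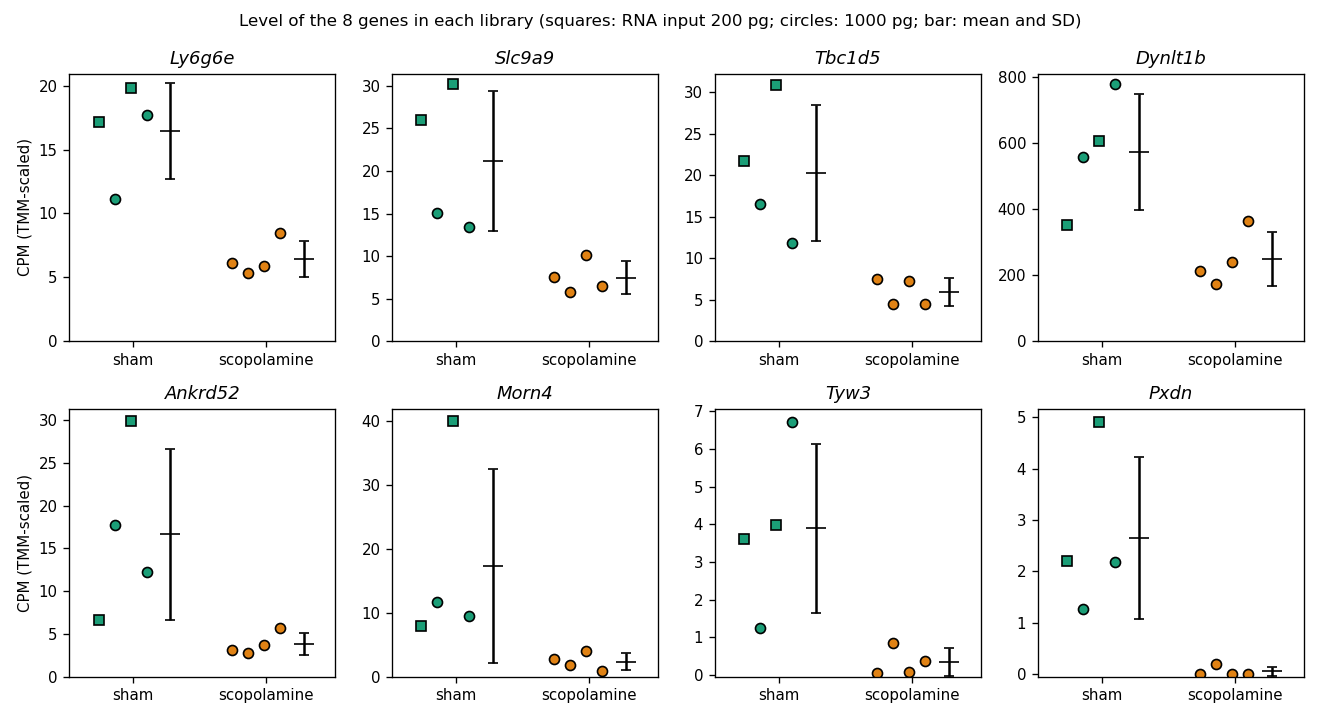
TMM-scaled CPM of the 8 genes in each sham (green) and scopolamine (orange) library, each panel with its own linear axis, with the mean and SD beside each group and squares for RNA input of 200 pg. Ly6g6e, Slc9a9, Tbc1d5, Ankrd52, Morn4, Tyw3 and Pxdn show no overlap between the groups, sham replicate 3 (39.9 CPM) stands apart for Morn4, and the scopolamine libraries are at or near 0 for Tyw3 and Pxdn.

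The plot of level by library shows the 8 genes at very different levels, and only part of them were moderately expressed. Per kilobase of coding transcript, the mean level over all libraries was 532 CPM per kilobase for Dynlt1b, higher than for 98.3% of the 12278 genes tested that had a coding transcript length, and 16.1 CPM per kilobase for Ly6g6e (64.7%). Morn4 followed with 5.49 CPM per kilobase (41.8%), then Slc9a9 with 4.15 (35.8%), Ankrd52 with 2.83 (28.7%) and Tbc1d5 with 2.58 (27.1%). Tyw3 with 0.717 CPM per kilobase (9.90%) and Pxdn with 0.276 (2.88%) were among the lowest genes tested. Only Dynlt1b and Ly6g6e were above the median of 8.21 CPM per kilobase, and the most abundant gene had the smallest fold change in size and the least abundant the largest.

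Over all genes tested, 251 of 12849 (1.95%) had every scopolamine library below every sham library, and 247 (1.92%) had the reverse. The rule chose 7 of the 8 genes from those 251, so this count says nothing further about them. By size of log2 fold change, Pxdn ranked 2, Tyw3 4, Morn4 5, Ankrd52 8, Tbc1d5 17, Slc9a9 24 and Ly6g6e 31 among the 251. The median log2 fold change of the 8 genes was -1.95, against -0.011 over all genes tested, with quartiles of -0.29 and 0.34. With edgeR's quasi-likelihood test, 0% of genes were lower at a Benjamini-Hochberg adjusted p under 0.1 and 0 of the 8 genes were called, while 2.66% were lower at an unadjusted p under 0.05, all 8 genes included, and 3.33% were higher. With DESeq2, 0.332% of the 14462 genes given an adjusted p were lower at that threshold, and these included all 8 genes. Since the contrast is the one by which the genes were chosen, nothing is read from these counts.

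**Figure D3:**
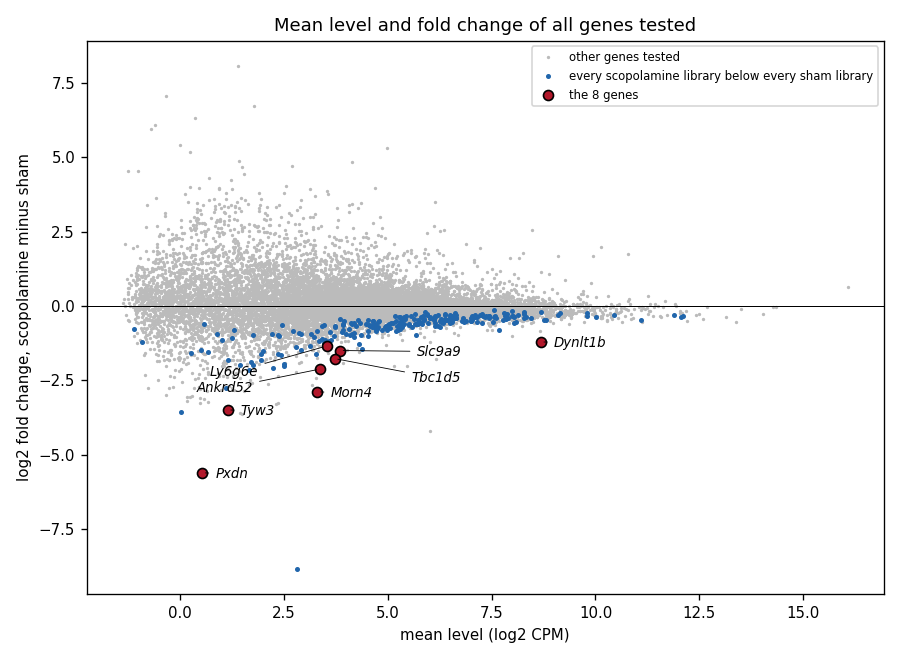
Log2 fold change (scopolamine minus sham) against mean level (log2 CPM) for the 12849 genes tested in grey, with the 251 genes whose scopolamine libraries were all below every sham library in blue and the 8 genes in red. Dynlt1b lies far to the right of the other 7 genes at a log2 fold change of -1.21, and Pxdn lies lowest of the 8 at -5.61.

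The direction was lower under scopolamine for each of the 8 genes in every setting in which it could be fitted. The choice of genes fixes this direction in large part, so it says nothing further about them. With 1 library left out at a time, the log2 fold change ran from -1.52 to -1.25 for Ly6g6e, from -1.69 to -1.28 for Slc9a9, from -1.96 to -1.49 for Tbc1d5 and from -1.47 to -1.03 for Dynlt1b. The ranges were wider for the genes with fewer counts or with 1 library apart, at -2.40 to -1.68 for Ankrd52, -3.27 to -2.06 for Morn4, -4.51 to -3.10 for Tyw3 and -9.22 to -5.12 for Pxdn. For Ankrd52, Morn4 and Pxdn, as for Slc9a9, Tbc1d5 and Ly6g6e, the smallest value in size came without sham replicate 3. The largest in size for Tyw3 and Pxdn came without scopolamine replicate 2, the library that held most of their scopolamine counts.

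**Figure D4:**
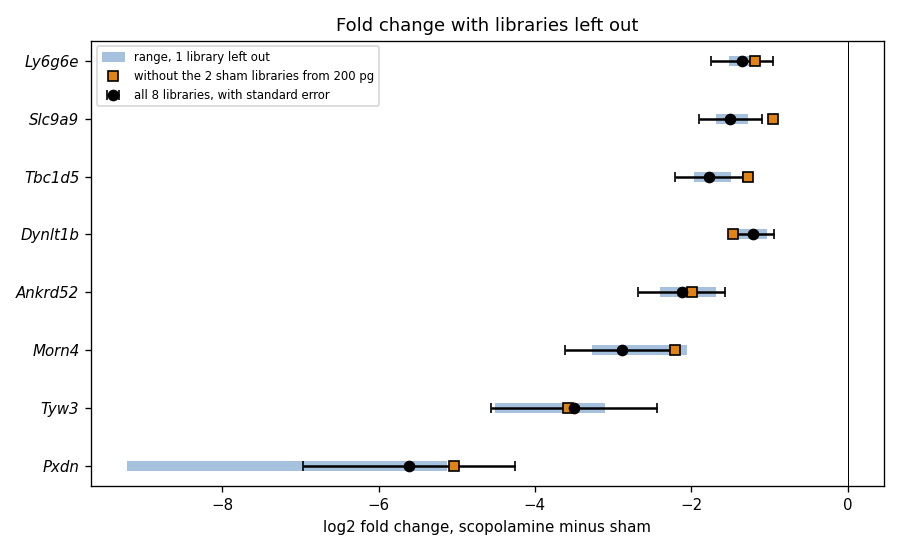
Log2 fold change (scopolamine minus sham) of the 8 genes from all 8 libraries with its standard error (black), the range with 1 library left out (blue) and the value without the 2 sham libraries from 200 pg (orange). All values lie below 0, which the choice of genes fixes in large part. Leaving out the 200 pg libraries moves Slc9a9 from -1.50 to -0.95 and Dynlt1b from -1.21 to -1.47.

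Within the sham group, both 200 pg libraries were above both 1000 pg libraries for Slc9a9 and Tbc1d5. The mean of the 200 pg libraries was 28.1 CPM for Slc9a9 against 14.2 CPM in the 1000 pg libraries, and 26.3 against 14.2 CPM for Tbc1d5. For Morn4 (23.9 and 10.6 CPM) and Pxdn (3.56 and 1.72 CPM) the means also differed, but through sham replicate 3, since sham replicate 1, the other 200 pg library, was below both 1000 pg libraries for Morn4 and level with sham replicate 4 for Pxdn. The difference was smaller for Ly6g6e (18.5 and 14.4 CPM) and Ankrd52 (18.3 and 14.99 CPM), near nil for Tyw3 (3.80 and 3.98 CPM) and in the other direction for Dynlt1b. These values, 2 libraries against 2, were set side by side with no test. Sham replicate 3 was the highest sham library for 6 of the 8 genes, sham replicate 4 being the highest for Tyw3 and Dynlt1b. All scopolamine libraries came from 1000 pg, so that input and cycles are alike, though depth is not, among the 6 libraries without sham replicates 1 and 3. Among these all 8 genes showed no overlap, where 1286 of 13869 genes tested (9.27%) did so, and this count too is fixed in large part by the choice of genes.

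The variation between mice of 1 group is given as a description, since the rule used the CPM of each library and a lack of overlap limits the spread within a group. The SD of log2 CPM of the 8 genes had a median of 0.45 in the scopolamine group and 0.68 in the sham group, against 0.48 and 0.55 over all genes tested. Over the 28 pairs of genes, Pearson's r of the deviations from the group means (over 8 libraries, which differ in depth and amplification, each library's depth and amplification being common to all 8 genes) ranged from -0.50 to 0.91 with a median of 0.13, and 19 pairs were above 0. With all libraries, Slc9a9 and Tbc1d5 varied most alike (r = 0.91), followed by Tbc1d5 and Morn4 (r = 0.77), Tyw3 and Pxdn (r = 0.71), Ankrd52 and Dynlt1b (r = 0.68) and Slc9a9 and Morn4 (r = 0.61). Without the 200 pg libraries the median was -0.16, while these 5 pairs stood at 0.81, 0.84, 0.81, 0.64 and 0.76, the highest r was that of Ly6g6e and Dynlt1b (0.92, against 0.45 with all libraries) and the lowest that of Tyw3 and Tbc1d5 (-0.93). With all libraries, the lowest r was that of the same pair (-0.50). For Tyw3 and Pxdn most scopolamine libraries were near or under the floor, so that their deviations in that group rest on the prior count and on scopolamine replicate 2. These correlations rest on few libraries and carry no test.

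The other genes of the pathways were tested with edgeR over all genes, with the 8 genes left out, and are set beside the 50.9% of all genes tested that had a log2 fold change below 0. In the LY6 and uPAR domain family, 12 genes were tested, 5 with a log2 fold change below 0 and 7 above, and at an unadjusted p under 0.05 there were 2 lower and 2 higher (2.66% and 3.33% of all genes). The 3 with the smallest p were Ly6m, at 4.92 ± 3.71 CPM (SD, n = 4) under scopolamine and 0.528 ± 0.355 CPM (SD, n = 4) in sham (log2 fold change 3.20, standard error 0.91), Ly6g6d, and Lypd8, an abundant member at 1202 ± 620 CPM (SD, n = 4) and 698 ± 143 CPM (SD, n = 4). The fourth was Ly6g6f (chr17:35080480-35085610, minus strand), lower at 393 ± 125 CPM (SD, n = 4) under scopolamine against 565 ± 129 CPM (SD, n = 4) in sham, and its 31-base words were all unique. Ly6m and Lypd8 were thus higher and Ly6g6d and Ly6g6f lower at this p, and the median of the family was 0.24. For Ly6m every scopolamine library was above every sham library, as for 1.92% of all genes tested. None of the family passed a Benjamini-Hochberg adjusted p of 0.1 in edgeR.

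Among the endosomal groups, 8 genes of the SLC9 sodium-proton exchangers and their partners were tested, 4 below and 4 above 0, their median log2 fold change being 0.048, with 0 genes at an unadjusted p under 0.05. Of 17 V-ATPase subunits, whose proton pumping opposes the leak through exchangers such as NHE9, 9 were below and 8 above 0 with a median of -0.12, and 2 were lower and 2 higher at an unadjusted p under 0.05 (2.66% and 3.33% of all genes). The 3 with the smallest p were the peripheral subunits Atp6v1f (log2 fold change -0.40, standard error 0.13) and Atp6v1g1 (log2 fold change -0.42, standard error 0.17), and the membrane subunit Atp6v0a2 (log2 fold change 0.78, standard error 0.26). The second higher one was the membrane subunit Atp6v0a1 (log2 fold change 0.46, standard error 0.20), and none passed the adjusted threshold in edgeR. Of 35 genes of the retromer coat and the RAB7 cycle, 17 were below and 18 above 0 with a median of 0.023, and 0 had an unadjusted p under 0.05. Their log2 fold changes ran from -0.79 to 1.16, beside the -1.77 for which Tbc1d5 was chosen.

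Of 23 other dynein and dynactin genes, 15 were below and 8 above 0 (median -0.080 on the log2 scale), and 4 were lower at an unadjusted p under 0.05. Of these, 2 were the copies Dynlt1f and Dynlt1c described above, and the others were the light chain Dynll1 (log2 fold change -0.45, standard error 0.16) and the roadblock-type light chain Dynlrb1 (log2 fold change -0.48, standard error 0.18). The share of all genes lower at that p was 2.66%, and none of the 4 passed the adjusted threshold in edgeR.

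The remaining groups had few genes that were tested. The 6 other genes of the protein phosphatase 6 holoenzyme were 2 below and 4 above 0 with a median of 0.18, and 0 had an unadjusted p under 0.05. Of 8 other genes of the MORN family and class III myosin partners, only 4 passed the filter, 2 below and 2 above 0 with a median of 0.31. Of these, 1 was lower at an unadjusted p under 0.05 (2.66% of all genes), namely Morn2 (chr17:80290203-80297476, plus strand), at 20.4 ± 1.30 CPM (SD, n = 4) under scopolamine against 33.7 ± 4.89 CPM (SD, n = 4) in sham, with no overlap and a log2 fold change of -0.72 (standard error 0.23). The 8 genes of wybutosine synthesis and phenylalanine tRNA modification were 6 below and 2 above 0 with a median of -0.37. Of 26 basement membrane genes, only 8 passed the filter, and 6 had no count in any library. The 8 tested were 5 below and 3 above 0 with a median of -0.18. In either group, 0 had an unadjusted p under 0.05. The adjusted p over all listed genes was at least 0.812 in edgeR. With DESeq2, 3 of them had an adjusted p under 0.1, namely Ly6m, higher, and Morn2 and Dynlt1f, lower, where 0.982% of all genes given an adjusted p were higher and 0.332% lower.

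**Figure D5:**
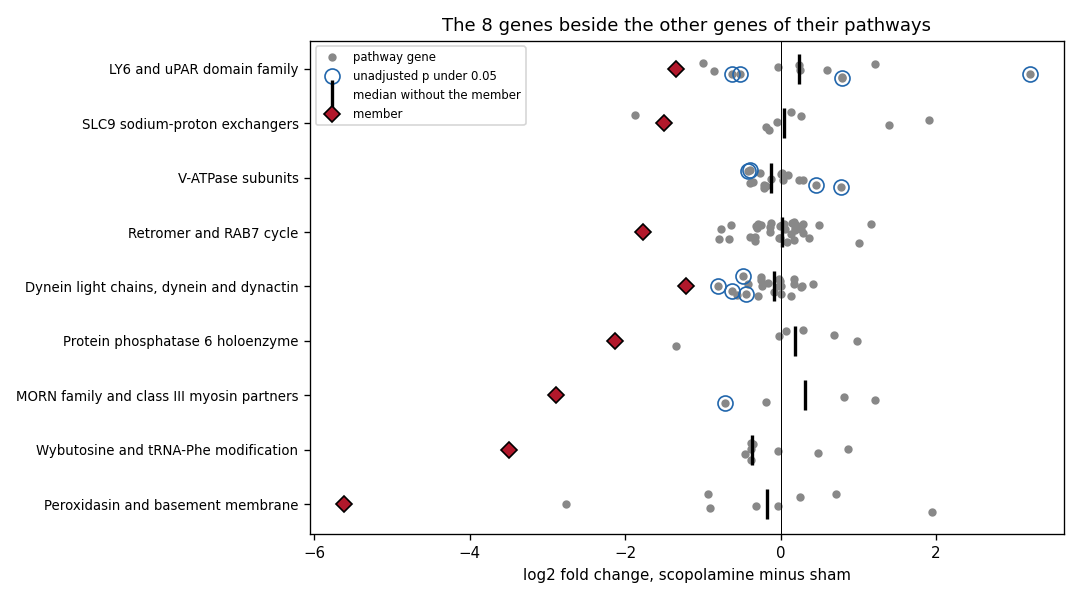
Log2 fold change (scopolamine minus sham) of each tested gene of the 9 pathway groups (grey), with a blue ring at an unadjusted p under 0.05 in edgeR, a black bar at the group median without the chosen gene, and the chosen gene in red. The medians lie between -0.37 and 0.31, and the chosen genes lie to the left of them, a position that the choice of genes fixes.

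The 5 genes outside the 8 whose profile over the 8 libraries was most like the mean of theirs (Pearson's r of log2 CPM with the mean standardised profile) were Slc25a33 (r = 0.95), Gm13443 (r = 0.95), Arl2 (r = 0.95), Morn2 (r = 0.94) and Mrps33 (r = 0.94). The mean profile holds the difference between the groups, so that these genes are alike in being lower under scopolamine. Slc25a33, a mitochondrial pyrimidine nucleotide carrier, was at 22.8 ± 1.46 CPM (SD, n = 4) under scopolamine and 40.3 ± 4.04 CPM (SD, n = 4) in sham. Arl2, a small GTPase of tubulin folding, was at 58.2 ± 6.70 CPM (SD, n = 4) and 95.6 ± 16.9 CPM (SD, n = 4). Mrps33, a protein of the mitochondrial ribosome, was at 63.2 ± 3.46 CPM (SD, n = 4) and 92.8 ± 15.2 CPM (SD, n = 4). Gm13443 ranked above Pxdn in size, with 0 to 0.0947 CPM under scopolamine and 1.05 to 20.2 CPM in sham.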

How the data were processed

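Bulk RNA of sorted ZSgreen-positive jejunal cells was sequenced from 8 mice. Per the methods, the authors trimmed adaptors with bcl2fastq 2.20, assigned reads to the GRCm38 transcriptome with kallisto 0.44.0, summed transcripts to genes with tximport and deposited the resulting estimated counts, which were not normalized. These were whole numbers and were tested as such. The annotation release and any use of strand are not given in the sources used here. Treatment and cell number came from the labels, and RNA input, cycles and mouse ID series (the letter in each mouse's ID) from the study's source data. All table columns mapped to a sample.

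Groups were compared over all genes with edgeR 4.0.16 (TMM, filterByExpr, quasi-likelihood test, p adjusted by Benjamini-Hochberg and called under 0.1) on R 4.3.3, with a prior count of 2 for log2 CPM. The 8 genes and the pathway and marker lists were chosen with earlier results of these data known, and the study displays the 8 among its lower genes. Named beside them were, per pathway list, the genes with an unadjusted p under 0.05 (at most the 3 with the smallest p), the 5 genes most like their mean profile, each Dynlt1 copy, and Dclk1, Trpm5 and Pou2f3. Dynlrb1, Atp6v0a1 and Ly6g6f, each the fourth of its list, Gm13443's rank, the range of the retromer and RAB7 genes and the genes called by DESeq2 were added after their values were seen.

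The other settings used limma-voom (limma 3.58.1), DESeq2 1.42.0, other size factors, no or a stricter filter (at least 10 counts in every library), thinning to the smallest total, a covariate for cycles or for mouse ID series, leaving out the 200 pg libraries, and leaving out each library, 18 settings in all. The sum of the Dynlt1 copies was added after the data were seen. GENCODE M21 gave coordinates (34887 symbols found, 312 not) and 31-base words over both strands, and RefSeq (GRCm38.p6) the promoters. The test was checked on simulated data with 200 changed genes. No libraries of a group agreed within sampling noise (smallest chi-square per degree of freedom 71.6). P-values measure the spread between libraries, 1 per mouse, which in the sham group includes differences in RNA input and cycles. Floors cover counting error only.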

Additional observations from a re-analysis of the deposited data

Results flagged for a closer look

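Among 32 groups of 4 libraries examined (the 8 genes, their Dynlt1 copies and the genes of like profile), 5 held a library whose gap to its nearest neighbour, as a share of the group's range, exceeded Dixon's critical value, where chance flags about 1 in 20 groups. Sham replicate 3 was the high library for Morn4 (share 0.881, 39.9 CPM against at most 11.7 CPM in the other sham libraries). Scopolamine replicate 2 was the only scopolamine library with a Pxdn count, which gives a share of 1. Scopolamine replicate 4 was likewise the only one with a count of Gm13443, again a share of 1, and sham replicate 2 was the low library for that gene in sham (share 0.835). Scopolamine replicate 2 was the low library for Arl2 (share 0.843).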

How the results depend on the processing

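Each of the 8 genes was lower under scopolamine in every setting that gave a value, which the choice of genes fixes in large part. Tyw3 and Pxdn gave no value under the filter of 10 counts in every library. The median log2 fold change of the 8 genes, -1.95, was -1.59 without sham replicate 3 and ran from -2.10 to -1.59 with 1 library left out. Log2 fold changes of single genes that moved by over 1.5 times on the linear scale were those of Morn4 at -2.06 without sham replicate 3, -2.21 without the 200 pg libraries and -2.19 with cycles as a covariate, Ankrd52 at -1.43 with mouse ID series as a covariate, Tyw3 at -4.51 and Pxdn at -9.22 without scopolamine replicate 2, and Pxdn at -5.00 with cycles as a covariate. Slc9a9 stood at -0.95 without the 200 pg libraries and -0.93 with cycles as a covariate, and Tbc1d5 at -1.26 with the latter. Dynlt1b stood at -0.79 with mouse ID series as a covariate. That series largely follows the groups (3 of 4 scopolamine mice in series M, 3 of 4 sham mice in series N), and the mice that go against this, scopolamine replicate 4 and sham replicate 1, are those that overlap for Dynlt1b and come closest for Ankrd52. The number of the 8 genes without overlap was 7 or 8 with 1 library left out, as it had to be since leaving out a library creates no overlap, where 2.88 to 5.14% of all genes tested showed none. The median within-group r of 0.13 reversed to -0.16 without the 200 pg libraries.

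Over all genes, edgeR called 0 at an adjusted p under 0.1 (770 at an unadjusted p under 0.05), against 190 with DESeq2 (48 lower and 142 higher). It called 9 without the 200 pg libraries, 5 with cycles as a covariate and 0 to 2 with 1 library left out, 2 without sham replicate 1. All genes called in these edgeR settings were higher under scopolamine, and 0 were lower. Genes lower at an unadjusted p under 0.05 numbered 342, 623 with no filter, 616 with DESeq2 and 228 (without scopolamine replicate 2) to 506 (without sham replicate 1) with 1 library left out. Of the pathway genes, 0 were called in edgeR and 3 with DESeq2. The cause of these changes was not tested. No paired analysis was possible because the labels match no scopolamine mouse to a sham mouse. The replicate numbers used here give only the order of the libraries within each group. Depth limits Tyw3 and Pxdn most, with few counts under scopolamine.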
